A study of Mus musculus with 6 samples.

Results

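The 3 wild-type (WT) libraries of a 6-library mouse series are described here, across all genes and without a comparison between genotypes. They were chosen as the columns WT 1, WT 2 and WT 3 of the deposited raw count table. Each came from the tibialis anterior (TA), a fast-twitch muscle at the front of the lower hind leg, of a C57BL6 mouse of wild-type genotype aged 1 month, and no treatment is given. RNA was purified on RNeasy columns and made into strand-marked mRNA libraries with a KAPA HyperPrep kit. The other 3 libraries carry a deletion of Dmd exon 51 and were not used. The labels call the libraries biological replicates, so every spread below is the spread between these 3 samples, with no test: 3 libraries cannot give an exact two-sided p under 0.25. TPM is used throughout for levels compared between genes. It is the read count divided by the deposited exon length and scaled to 1000000 per library over all genes.

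A skeletal muscle fibre is a multinucleated cell filled with sarcomeres, in which myosin filaments pull on actin filaments after calcium binds troponin. Fibres differ in speed and fuel use because most sarcomeric and metabolic proteins come in isoforms made by separate genes. Fast glycolytic fibres use the myosin heavy chains Myh4 (type IIB) and Myh1 (type IIX), fast oxidative fibres use Myh2 (type IIA), and slow fibres use Myh7. Between the fibres lie vessels, nerve, satellite cells, fibroblast-like progenitors, tendon cells and immune cells.

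Deposited counts summed to 20136164 in WT 1, 21020353 in WT 2 and 15681945 in WT 3. Of 54232 genes in the table, 29475 had 0 counts in all 3 libraries and 17869 had at least 1 count in each. A level of at least 1 TPM in every library was reached by 11606 genes, of which 10651 were protein-coding. Only 666 genes had a mean of at least 100 TPM, and 58 had at least 1000 TPM, 45 of them nuclear protein-coding genes. The 10 most abundant genes held 47.8%, 49.8% and 49.3% of TPM in WT 1 to 3, a mean of 49.0% ± 1.04 (SD, n = 3), but 28.0% ± 0.409 of counts. In each library, 11 or 12 genes sufficed to hold 50% of TPM. Among nuclear protein-coding genes alone the top 10 held 26.6% ± 0.296 of that class's TPM, and 103.3 ± 3.79 genes were needed for 50%. The profile was thus concentrated on few genes in every library, and far more so when mitochondrial transcripts were included.

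Of the 25 most abundant genes, 10 lay on the mitochondrial genome, 13 were nuclear protein-coding genes and 2 were short or ribosomal RNA genes. The 3 values of neighbours in this order did not overlap in 10 of 24 adjacent pairs, and the order within the other 14 pairs is not separated by the replicate spread. Acta1, the skeletal alpha-actin of the thin filament, was the most abundant nuclear gene at 39308, 37034 and 35043 TPM, a mean of 37128 ± 2134 TPM (SD, n = 3). Tnnt3, the fast troponin T that ties troponin to tropomyosin, stood at 19437, 19812 and 20090 TPM. Myh4 stood at 16022, 14182 and 16545 TPM. The 3 actin values were all above the 3 troponin T values, and these were all above the 3 myosin values. Ckm, the cytosolic muscle creatine kinase that buffers ATP, had 6578, 6428 and 6435 TPM, and Actn3, the fast-fibre alpha-actinin of the Z-disc, had 4836, 4591 and 4961 TPM. Tnnt3 and Ckm varied least among these marker genes, with highest-to-lowest ratios of 1.03 and 1.02, against 1.17 for Myh4. On GRCm38 these genes lie at chr8:123891769-123894751 (Acta1), chr7:142498836-142516009 (Tnnt3), chr11:67238029-67260446 (Myh4), chr7:19404776-19422841 (Ckm) and chr19:4861216-4877909 (Actn3).

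**Figure D1:**
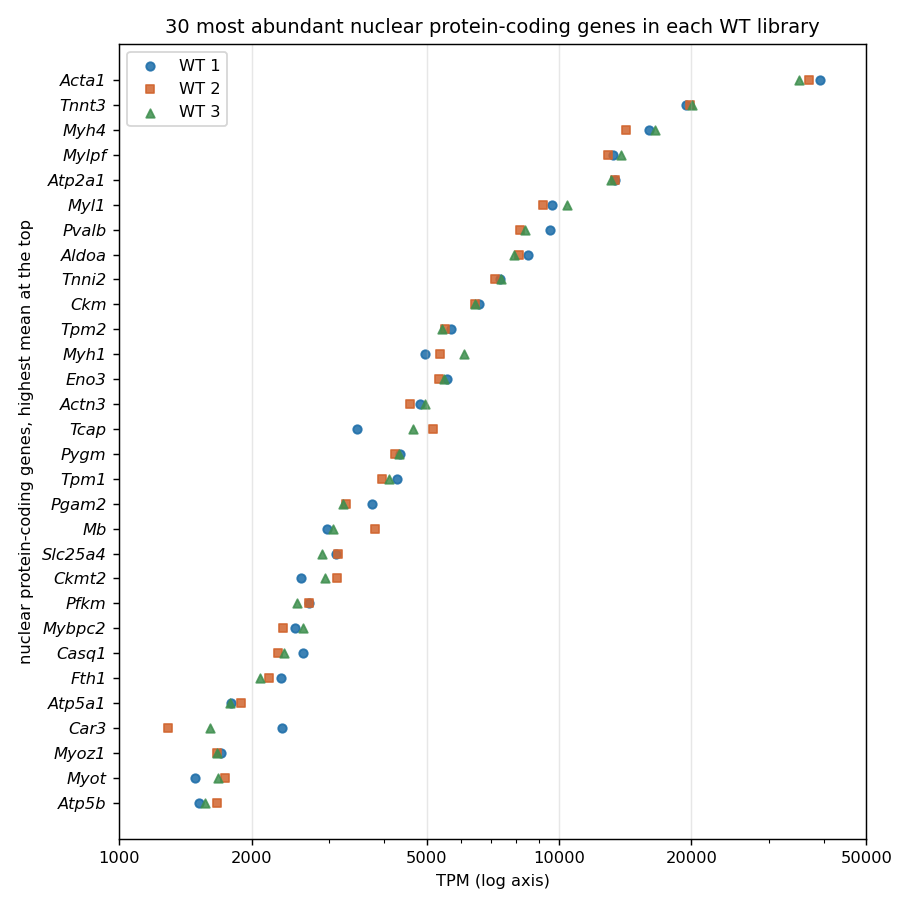
Level in TPM (log axis) of the 30 most abundant nuclear protein-coding genes, 1 point per WT library. Acta1 leads at 35043 to 39308 TPM, and the libraries overlap for most neighbouring genes; Tcap and Car3 show the widest gaps between libraries.

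The rest of the leading nuclear genes were also parts of the fast contractile and energy systems. Mylpf, the fast regulatory myosin light chain, had 13291, 12953 and 13813 TPM, and Atp2a1, the fast-fibre calcium pump of the sarcoplasmic reticulum, had 13400, 13441 and 13125 TPM. The values of these genes overlapped. Myl1, the fast essential light chain, had 9652, 9183 and 10415 TPM. Pvalb, a calcium-binding protein that speeds relaxation, had 9537, 8154 and 8375 TPM, and Aldoa, the glycolytic aldolase, had 8504, 8125 and 7889 TPM. The WT 1 value of Pvalb lay above every value of Aldoa, and the other values of these genes were interleaved. Tnni2, the fast inhibitory troponin, had 7325, 7136 and 7386 TPM. Tpm2 (beta-tropomyosin) had a mean of 5538 ± 132 TPM, Eno3 (muscle enolase) 5462 ± 110 TPM and Myh1 5473 ± 569 TPM (SD, n = 3). Their ranges overlapped, so these 3 genes have no order.

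The 2 remaining genes of the top 25 are not messenger RNAs. Gm23935, annotated as a miRNA gene of 57 bases, had 16102, 9589 and 9642 TPM, and at so short a length few reads give a large TPM. CT010467.1, annotated as ribosomal RNA, had 11425, 5840 and 4882 TPM, and 67.7% of its 75-base words occur in other genes. WT 1 stood alone in both. Over the 354 annotated ribosomal RNA genes, the share of TPM was 1.14% in WT 1, 0.586% in WT 2 and 0.490% in WT 3.

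The mitochondrial genome encodes core subunits of the respiratory chain and ATP synthase, read from long transcripts of both strands. Its 37 genes held 42.8%, 45.4% and 45.0% of TPM, a mean of 44.4% ± 1.38 (SD, n = 3), and 20.3% ± 0.816 of counts. mt-Cytb, of complex III, was the most abundant gene of all at 84651, 93264 and 91195 TPM. mt-Nd1 followed at 77273, 76729 and 75045 TPM and mt-Nd2 at 61053, 63481 and 65656 TPM, both complex I subunits. mt-Co1, of complex IV, had 59514, 65374 and 64302 TPM and overlapped mt-Nd2. The members that share the genome and the complex did not share these levels in the count table. mt-Co2, also of complex IV, had 125, 145 and 190.3 TPM, so that mt-Co1 was 338.0 to 478 times higher. mt-Co3 stood at 63.6, 66.8 and 95.1 TPM, mt-Atp6 at 67.3, 75.4 and 110 TPM and mt-Nd3 at 7.62, 12.3 and 12.1 TPM. In these 4 genes, 97.8% to 99.9% of all 75-base words also occur in other annotated genes, against 39.8% in mt-Co1. How reads with several matches were treated (not given in the sources used here) and what part this has in these levels was not tested. mt-Nd6, the complex I subunit read from the opposite strand, had 44550, 47426 and 46229 TPM. Its level is uncertain, as the strand setting of the counting was not given. Because TPM sums to a constant, the mitochondrial share lowers the TPM of every nuclear gene, and shares within families are not touched by it.

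Promoter windows of 4 of these genes are shown: Acta1 as the most abundant nuclear gene, Myh4 and Myh1 as the leading myosin heavy chains, which are neighbours in the genome, and Ckm as the leading creatine kinase. RefSeq windows on GRCm38.p6 run from 250 bases before to 50 bases after an annotated start, 300 bases in all, written 5′ to 3′ on the gene's strand. Capitals mark matches on either strand to TATAAA (the TATA box), CAGCTG (an E-box of the kind bound by the MyoD family) and CTA, 4 bases of any kind and TAG (a frame that includes the core form bound by MEF2 factors). The last 2 were matched alike on both strands, and TATAAA can lie inside the last.
Acta1, chr8:123894726-123895025, minus strand: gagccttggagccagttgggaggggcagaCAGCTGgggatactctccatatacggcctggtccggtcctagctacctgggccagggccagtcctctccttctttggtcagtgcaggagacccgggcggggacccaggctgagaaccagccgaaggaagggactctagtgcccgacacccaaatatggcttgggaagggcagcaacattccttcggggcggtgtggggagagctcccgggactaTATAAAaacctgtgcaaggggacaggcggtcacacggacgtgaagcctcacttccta
Myh4, chr11:67237562-67237861, plus strand: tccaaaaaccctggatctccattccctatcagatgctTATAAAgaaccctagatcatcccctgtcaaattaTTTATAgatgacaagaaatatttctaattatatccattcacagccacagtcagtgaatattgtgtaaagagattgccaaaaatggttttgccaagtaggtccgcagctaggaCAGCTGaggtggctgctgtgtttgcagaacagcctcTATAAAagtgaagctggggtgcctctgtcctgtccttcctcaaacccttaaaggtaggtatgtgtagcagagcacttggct
Myh1, chr11:67199852-67200151, plus strand: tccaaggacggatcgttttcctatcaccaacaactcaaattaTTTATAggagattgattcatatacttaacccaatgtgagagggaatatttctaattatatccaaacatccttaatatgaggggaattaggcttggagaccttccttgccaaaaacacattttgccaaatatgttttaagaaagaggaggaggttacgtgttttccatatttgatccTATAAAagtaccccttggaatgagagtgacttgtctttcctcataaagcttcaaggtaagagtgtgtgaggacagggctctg
Ckm, chr7:19410844-19411143, plus strand: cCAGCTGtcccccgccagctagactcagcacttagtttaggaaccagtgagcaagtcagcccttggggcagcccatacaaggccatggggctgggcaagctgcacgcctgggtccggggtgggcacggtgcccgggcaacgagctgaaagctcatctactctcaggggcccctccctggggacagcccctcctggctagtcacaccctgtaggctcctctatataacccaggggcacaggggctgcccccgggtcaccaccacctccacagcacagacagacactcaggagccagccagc
In Myh4 a forward TATAAA began 31 bases before the start and CAGCTG 67 bases before it, with further TATAAA matches 179 and 213 bases before it. Myh1 had a forward TATAAA 32 bases before the start, nearly the same place as in Myh4, and no CAGCTG in the window. Acta1 held CAGCTG 221 bases and TATAAA 7 bases before the annotated start. The Ckm window held CAGCTG 249 bases before the start. Of the 100 most abundant genes, 63 matched the promoter table, with 87 windows. CAGCTG was found in 35.6% of these windows, against 15.8% of 11593 windows of genes with at least 1 mean TPM and 15.9% of all 24844 windows. TATAAA was found in 14.9%, 7.47% and 12.6% of the same sets, and the MEF2-type frame in 8.05%, 3.21% and 3.58%. A match is a run of letters and not a shown binding site.

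Sarcomeric myosin heavy chains, the motors of the thick filament, were dominated by the fast glycolytic forms. Myh4 held 70.2% ± 3.27 and Myh1 24.6% of the family's TPM. Myh1 had 4959, 5376 and 6085 TPM, and the ratio of Myh4 to Myh1 was 3.23, 2.64 and 2.72. Every Myh4 value lay above every Myh1 value. Myh2, the fast oxidative form, had 610.1, 1423 and 738 TPM, so WT 2 carried about as much as the other libraries together. The ratio of Myh1 to Myh2 was accordingly 3.78 in WT 2 against 8.13 and 8.25 in WT 1 and WT 3. Myh8, the perinatal form, was still present at 187, 177 and 193 TPM, a mean of 186 ± 8.20 TPM (SD, n = 3). Myh3, the embryonic form, had 2.54, 2.86 and 3.61 TPM, and Myh13, the extraocular form, had 4.25, 5.54 and 7.58 TPM. Perinatal myosin was therefore far above embryonic myosin in each library. Myh7, the slow and cardiac beta form, had 1.64, 2.26 and 0.527 TPM. Myh6 (cardiac alpha) had a mean of 1.44 ± 0.172 TPM and Myh7b, an ancient slow-type form, 1.36 ± 0.0646 TPM (SD, n = 3). The ranges of these 3 lowest genes overlapped. In Myh1, 20.9% of 75-base words occur in other genes, and in Myh4 9.68%, so reads of the closely related chains can be split between them.

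**Figure D2:**
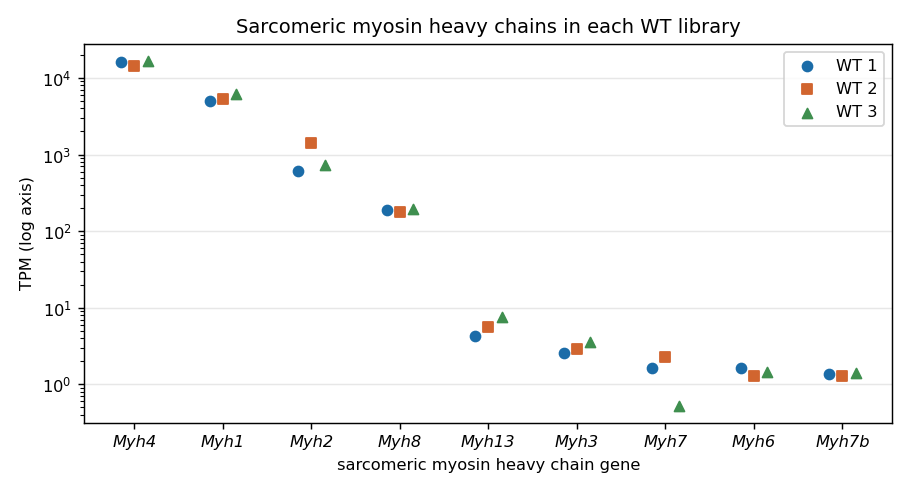
Level in TPM (log axis) of the 9 sarcomeric myosin heavy chain genes, 1 point per WT library, ordered by mean. Myh4 and Myh1 lie above the other genes in each library, Myh2 is highest in WT 2 at 1423 TPM, and the last 5 genes lie under 8 TPM.

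Across 67 families of related genes, 29 for contraction and excitation and 38 mainly metabolic, 1 gene held at least 90% of the family's TPM in 43 families. In the other 24 the leader held 50% to 90%, and no family had a leader under 50%. A family of 2 genes can hardly have a leader under 50%, so this partly reflects how the families were listed. In 21 families the leader held at least 99%. The leading gene was the same in all 3 libraries in all families but Leiomodins, Muscle LIM proteins and Pyruvate dehydrogenase kinases. With the longest transcript as length, or with counts not divided by length, 3 families had another leader, which were Tropomyosins (Tpm1), Muscle LIM proteins (Csrp3) and Fatty acid binding proteins (Fabp4). Gene counts do not separate splice forms of 1 gene. Some runner-up genes share many 75-base words with other genes, such as Pgam1 (34.9%), and others, such as Pfkl and Pygb, share none. What part this has in the leaders' shares was not tested.

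The thin filament was almost purely of the fast form. Tnnt3 held 99.96% ± 0.00551 of troponin T, while slow Tnnt1 had 8.77, 7.55 and 6.54 TPM. Tnni2 held 99.98% ± 0.00662 of troponin I, while slow Tnni1 had 1.75, 1.42 and 1.26 TPM. The fast form exceeded the slow form 2217, 2626 and 3070 times for troponin T and 4176, 5029 and 5859 times for troponin I. These ratios depend on the length used, as the slow share of troponin I was 0.0203% of TPM, 0.0326% with the longest transcript and 0.0488% of counts not divided by length. Troponin C did not follow this pattern in the count table. Fast Tnnc2, the calcium sensor, had 27, 1 and 0 counts, or 4.26 and 0.148 TPM in WT 1 and WT 2 and none in WT 3, while slow Tnnc1 had 4.73, 7.53 and 4.83 TPM. Both are far below the partner subunits, and 74.0% of Tnnc2 exon bases lie under Ube2c on the opposite strand, so the Tnnc2 level is uncertain. Troponin C is counted above among the 24 families with a leader of 50% to 90%, but its leading gene is not established. Acta1 held 98.2% ± 0.308 of actins. Actc1, the cardiac actin also made in young skeletal muscle, had 335, 293 and 412 TPM, and Actb, a cytoplasmic actin, 304, 145 and 165 TPM, again highest in WT 1. Tpm2 and Tpm1, the beta and alpha tropomyosins, shared their family, at 5682, 5509 and 5424 TPM against 4290, 3958 and 4114 TPM. Their values did not overlap, but Tpm1 led with the longest transcript as length and with counts not divided by length, as its deposited exon length of 6485 bases is far above that of its longest transcript, 2890 bases.

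Thick-filament partners and the Z-disc showed more sharing. Mylpf held 98.6% ± 0.166 of regulatory light chains and Myl1 98.3% ± 0.446 of essential ones. Myl3, the slow essential light chain, had 125, 158 and 88.3 TPM, the highest of the 10 slow fibre markers. Mybpc2, the fast myosin-binding protein C, led with 61.7% ± 2.17, and Mybpc1, the slow form, still had 1447, 1618 and 1580 TPM. No other gene named here as a slow form exceeded 1000 TPM. Actn3 held 85.6% ± 1.97 of alpha-actinins, and Actn2, the form of all striated fibres, had 701, 892 and 739 TPM. Myoz1, a fast calcineurin-binding Z-disc protein, held 90.8% ± 1.30 of myozenins. Myom1, of the M-band, led Myom2 by 900, 928 and 953 TPM to 449, 438 and 473 TPM. Neb, the thin-filament ruler nebulin, had 1218, 1112 and 1204 TPM, and Nrap, a nebulin-related protein, 818, 793 and 686 TPM. The leiomodins, which start actin filaments, changed order between libraries. Lmod2 had 116, 322 and 262 TPM and Lmod3 194, 161 and 159 TPM, so Lmod3 led in WT 1 and Lmod2 in the others.

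Most excitation and calcium handling families were led by the form known from adult skeletal muscle. Junctophilins, which hold the membranes of the calcium store near the surface, were an exception, as Jph2, a form shared with heart, had 448, 325 and 318 TPM and Jph1, a form of skeletal muscle, 266, 261 and 261 TPM. In the sodium pump beta family the widely made Atp1b1 led with 53.5% ± 1.24. Atp2a1 held 99.77% ± 0.00678 of calcium pumps, 573 to 595 times above the slow and cardiac Atp2a2, which had 23.4, 23.4 and 22.1 TPM. In Atp2a1, 21.9% of exon bases lie under Rabep2 on the opposite strand. Ryr1, the calcium release channel, held 99.95% ± 0.0121 of ryanodine receptors at 548, 483 and 493 TPM. Cacna1s, the voltage sensor that opens it, had 390, 386 and 384 TPM, and its values all lay below those of Ryr1. Casq1, the fast calcium store protein, had 2617, 2302 and 2376 TPM, 38.0 to 46.2 times above Casq2. Among small peptides that restrain the pump, Mrln (myoregulin) had 25.9, 21.04 and 19.6 TPM, while Pln had 2.06, 2.88 and 2.06 TPM and Sln 0.383, 0.811 and 0.615 TPM. Mrln was above the others in every library, though 64.7% of Pln exon bases lie under genes of the opposite strand. Scn4a, the muscle sodium channel, held 99.42% ± 0.0383 of its family. Chrne, the adult receptor subunit at the nerve ending, held 99.2% ± 0.813 against the fetal Chrng.

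Glycolysis and glycogen use were well represented, each step mostly by a muscle form. The 27 genes of this list held 3.34% ± 0.0765 of TPM, with a median of 372 ± 19.1 TPM (SD, n = 3). Pygm, which breaks down glycogen, had 4350, 4238 and 4324 TPM and held 99.87% ± 0.00539 of phosphorylases. Pfkm, the committed step of glycolysis, had 2699, 2701 and 2533 TPM, and Pgam2, a phosphoglycerate mutase, had 3756, 3274 and 3229 TPM. Both held over 99% of their families, as did Aldoa and Eno3. Ldha, the muscle lactate dehydrogenase, held 90.1% ± 2.65, and Ldhb, the form of oxidative tissue, had 136, 207 and 132 TPM, highest in WT 2. Pgk1 stood low for this pathway, at 26.8, 28.2 and 28.5 TPM. Gapdh had 519, 487 and 454 TPM, above the list median in each library. In these genes, 52.8% and 22.6% of 75-base words occur in other genes, so their levels are uncertain. Pgm1 was the lowest member at 2.94 ± 0.125 TPM, while its relative Pgm2, which interconverts glucose phosphates, had 734 ± 37.4 TPM (SD, n = 3).

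Creatine kinase was split between compartments. Ckm held 69.2% ± 2.24, and Ckmt2, the mitochondrial form, had 2596, 3123 and 2930 TPM. Ckb, the brain form, had 5.06, 2.59 and 2.52 TPM. Slc25a4, the ATP and ADP exchanger of heart and muscle, held 98.8% ± 0.194 of its family at 3107, 3151 and 2898 TPM. Slc2a4, the insulin-regulated glucose transporter, held 94.0% ± 0.472. Respiratory chain subunits with muscle forms were led by these, with Cox6a2 at 97.2% ± 0.151 and Cox8b at 91.2% ± 0.847. Cox7a1 held only 57.0% ± 2.35, beside Cox7a2 at 24.4% and Cox7a2l at 18.6%. Translation followed the same pattern, since Eef1a2, the elongation factor of muscle and neurons, held 89.4% ± 1.45 and Rpl3l, the muscle form of ribosomal protein L3, 99.2% ± 0.0970. In Rpl3, 32.0% of 75-base words occur in other genes, and in Eef1a1 26.6%, so the levels of these runner-up genes are uncertain. The same holds for Slc25a5 (19.8%), Pgam1 (34.9%) and Eno1 (23%). Car3, an abundant muscle carbonic anhydrase, held 96.4% ± 1.36 but ranged over 2350, 1295 and 1606 TPM. Pdk4, which shuts pyruvate out of the citric acid cycle in fasting, had 256.2, 552 and 692 TPM, and its relative Pdk2 had 379, 365 and 319 TPM. Pdk2 therefore led in WT 1 and Pdk4 in WT 2 and WT 3.

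**Figure D3:**
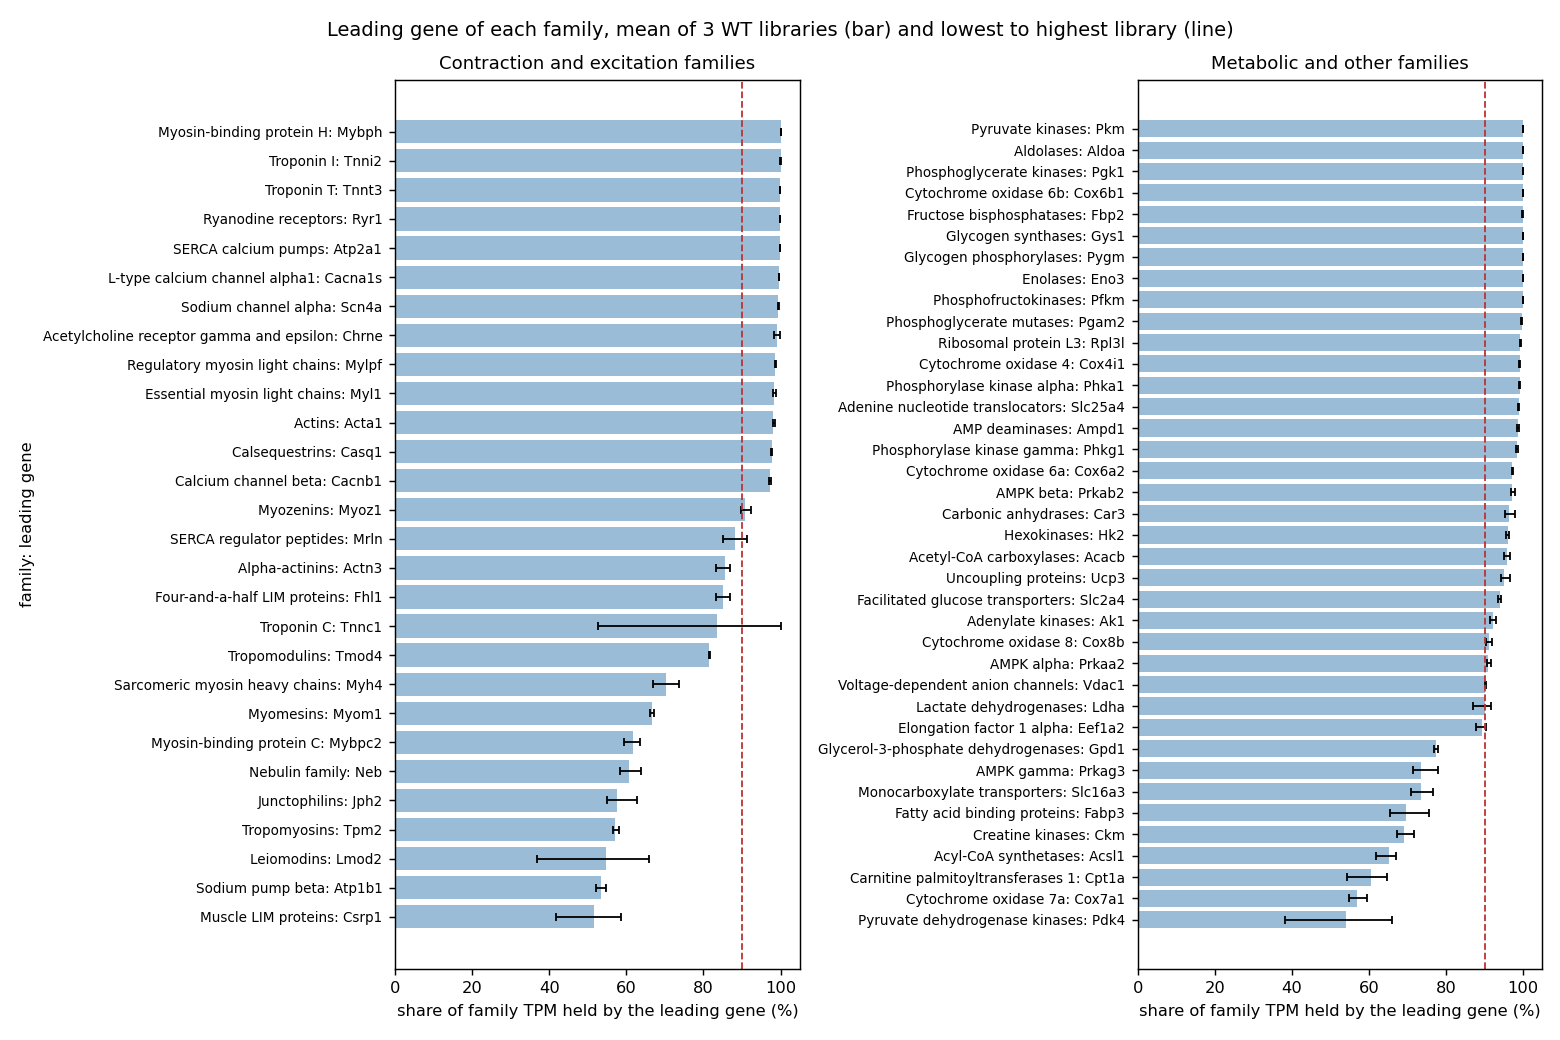
Share of family TPM held by the leading gene in 28 of the 29 contractile and in the 38 metabolic families. Bars are means of 3 WT libraries, black lines run from the lowest to the highest library, and the dashed line marks 90%; 42 of the plotted leaders reach it, and the widest lines belong to Troponin C, Leiomodins and Pyruvate dehydrogenase kinases.

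Nuclear genes of oxidative pathways had lower list medians than glycolysis, while mt-Cytb, mt-Nd1 and mt-Co1 of the mitochondrial genome stood above every gene of the glycolysis list. The 20 citric acid cycle genes had a median of 331 ± 6.10 TPM (SD, n = 3), close to the glycolytic median, yet summed to 0.674% ± 0.0185 of TPM. Suclg2, a subunit of succinyl-CoA synthetase, was lowest at 30.1, 30.8 and 30.8 TPM. The 20 fatty acid oxidation genes had a median of 89.96 ± 4.53 TPM, led by the fatty acid transporter Cd36 at 260.2, 378 and 426 TPM. Cpt1b, the muscle gate for fatty acid entry to mitochondria, had 3.67, 4.51 and 4.04 TPM, but 81.4% of its exon bases lie under Gm44502 on the same strand, so this level is uncertain. The 94 nuclear subunits of oxidative phosphorylation held 2.50% ± 0.102 of TPM. In the list of cytosolic ribosomal proteins, 84 genes held 0.506% ± 0.0144.

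The leading genes were unevenly placed in the genome. Chromosome 7 carries 9.17% of nuclear protein-coding genes and held 18.4%, 18.4% and 18.2% of their TPM. It has 10 of the 45 genes above 1000 TPM, among them Tnnt3, Mylpf, Atp2a1, Aldoa, Tnni2 and Ckm. Chromosome 11, with 7.46% of genes, held 12.8% ± 0.198 (SD, n = 3), and carries Myh4, Myh1, Eno3, Tcap, Pgam2 and Vdac1. Tnni2 and Tnnt3 lie 1 after the other on chromosome 7 in a stretch that ends at the imprinted RNA gene H19, chr7:142441808-142578143 (GRCm38), 136 kilobases long. The protein-coding genes of this stretch held 5.04%, 5.20% and 5.26% of nuclear protein-coding TPM. Between, beside or partly across them the non-coding genes Prr33 (176, 184 and 165 TPM), Nctc1 (65.2, 90.2 and 100.5 TPM) and H19 (565, 825 and 1008 TPM) were also present. The spans of Prr33 and Tnnt3 overlap on opposite strands. As the strand setting of the counting was not given, the Prr33 level is uncertain. The myosin cluster from Myh3 to Myh13, chr11:67078300-67371586, is 293 kilobases long and held 4.10%, 4.08% and 4.51%. Of its 11 annotated genes, 4 reached 100 TPM, and these were Myh2, Myh1, Myh4 and Myh8.

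Long non-coding genes held 0.671% ± 0.0121 of TPM in all. H19, a growth-linked imprinted RNA that is high in young muscle, was the highest at a mean of 799 ± 222 TPM (SD, n = 3), with a highest-to-lowest ratio of 1.78. 1700020I14Rik had 532, 532 and 588 TPM, and Malat1, a nuclear RNA found in most cells, had 438, 358 and 376 TPM. Gm15564 had 368, 240.2 and 205 TPM and 2310040G24Rik 204, 168 and 163 TPM. WT 1 was highest in the last 3 and lowest in H19.

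Regulators of fibre identity were measurable at moderate levels. All 30 genes of this list reached a mean of 1 TPM. Tbx15, a factor linked to glycolytic fibres, was highest at 217, 266 and 285 TPM. Mef2c, a myogenic factor, had 162, 148 and 151 TPM, and Myf6, the myogenic regulator of mature fibres, 113, 135 and 119 TPM. Prox1, a factor of slow fibres and of lymphatic vessels, was lowest at 1.09 ± 0.0344 TPM (SD, n = 3). In the dystrophin complex, which links actin to the matrix, Sgca (alpha-sarcoglycan) was highest at 175, 157 and 141 TPM, and Dag1 (dystroglycan) had a mean of 107 TPM. Dmd, dystrophin itself, had 22.6, 22.7 and 25.3 TPM, and its relative Utrn had 12.3, 12.2 and 12.6 TPM. The gene for the largest protein of the complex was thus among its lower members per deposited exon length. That length is 23801 bases for Dmd, against 14910 bases in its longest transcript, which lowers its TPM. Other members differ in the same way, such as Dtna with 16930 and 6295 bases. Among secreted factors, Vegfb (150.2, 144 and 115 TPM), Vegfa (155, 122 and 113 TPM) and Nampt (110, 120 and 131 TPM) were highest, and Fgf21 had 0 counts.

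Cell types other than fast fibres were read from lists of marker genes. In bulk tissue, fewer cells of a type and less RNA per cell cannot be told apart. Of 12 fast fibre markers, 11 stood above 2000 TPM in each library, which is the labelled tissue, and Tnnc2 was the exception given above. The 10 slow fibre markers had a median of 8.41 ± 0.804 TPM (SD, n = 3), led by Myl3, Casq2 and Myoz2. Of 8 cardiac markers, 7 were under 1 TPM, and Myl7, Nppa and Nppb had 0 counts. Keratinocyte Krt1, Krt5, Krt14 and Lor, hepatocyte Apoa1, Ttr and Serpina1a, neuronal Snap25, cartilage Matn1 and brown-fat Ucp1 also had 0 counts in all 3 libraries, while Krt10 had a mean of 1.09 TPM, Col9a1 1.35 TPM and Alb 0.118 TPM.

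By mean list sum, connective tissue and vessels gave the highest signals after muscle, over lists of unequal size. The 13 markers of fibro-adipogenic progenitors, the matrix-making cells of muscle, summed to 1306, 786 and 1291 TPM. Col1a1, a collagen chain, led at 522, 223 and 430.3 TPM, followed by Col3a1 and Dcn, and Dpp4 was lowest at 2.28 ± 0.451 TPM. The 10 tenocyte markers summed to 599, 296 and 501 TPM, led by Fmod (fibromodulin) at 242, 122 and 191 TPM and Thbs4 (a tendon thrombospondin) at 162, 94.2 and 144 TPM. WT 2 was lowest in both sums. The 14 endothelial markers summed to 404, 398 and 377 TPM with a median of 21.6 ± 2.37 TPM, led by Cdh5, the junction cadherin of vessels, at 102, 93.9 and 90.2 TPM. The 12 pericyte and smooth muscle markers summed to 812, 819 and 802 TPM, led by Rgs5 at 410, 453 and 441 TPM. Vessel sums thus varied far less between libraries than those of matrix cells. Tagln was lowest of the mural list at 1.59 ± 0.240 TPM, with 67.9% of its exon bases under genes of the opposite strand.

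Other resident and blood cells mostly gave lower list sums. The satellite cell list, the stem cells of muscle, had a median of 4.42 ± 0.414 TPM (SD, n = 3). Spry1 led it at 23.6, 22.3 and 22.2 TPM, while Pax7, the defining factor, had 1.68, 1.26 and 1.88 TPM. The 13 Schwann cell markers had a median of 1.99 ± 0.185 TPM, with 10 at a mean of at least 1 TPM. Pmp22, a myelin protein, was highest at 41.7, 35.8 and 40.9 TPM of a list sum of 109, 94.7 and 97.6 TPM. At the nerve ending, Chrnb1, a receptor subunit, had 25.9, 28.1 and 24.9 TPM, and Chrnd was lowest at 1.66 ± 0.501 TPM. Macrophage markers had medians of 7.96, 5.16 and 10.5 TPM, led by Lyz2 (lysozyme) at 67.8, 36.9 and 87.6 TPM and the complement genes C1qa and C1qb. T cell markers were all under 1 TPM, with Cd3g at 0 counts. Neutrophil markers summed to 0.942, 0.494 and 5.79 TPM, with Ly6g and Mpo at 0 counts. B cell genes other than Ighm were under 1 TPM, and Ighm had 56.6, 35.5 and 44.5 TPM. Haemoglobin genes gave an erythroid sum of 513, 294 and 317 TPM, led by Hbb-bs at 269, 156 and 170.3 TPM, and 51.5% of the words of that gene occur in other genes. The erythroid sum in WT 1 was above the endothelial sum of 404 TPM. The erythroid median was 37.4 ± 8.33 TPM, above the endothelial and mural medians of 21.6 and 23.5 TPM, so this list was not low by that measure. The list consists mostly of haemoglobin genes. Of its 7 members, 5 reached a mean of at least 1 TPM, and Slc4a1 was lowest. The cycling list summed to 3.31, 2.32 and 4.42 TPM.

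**Figure D4:**
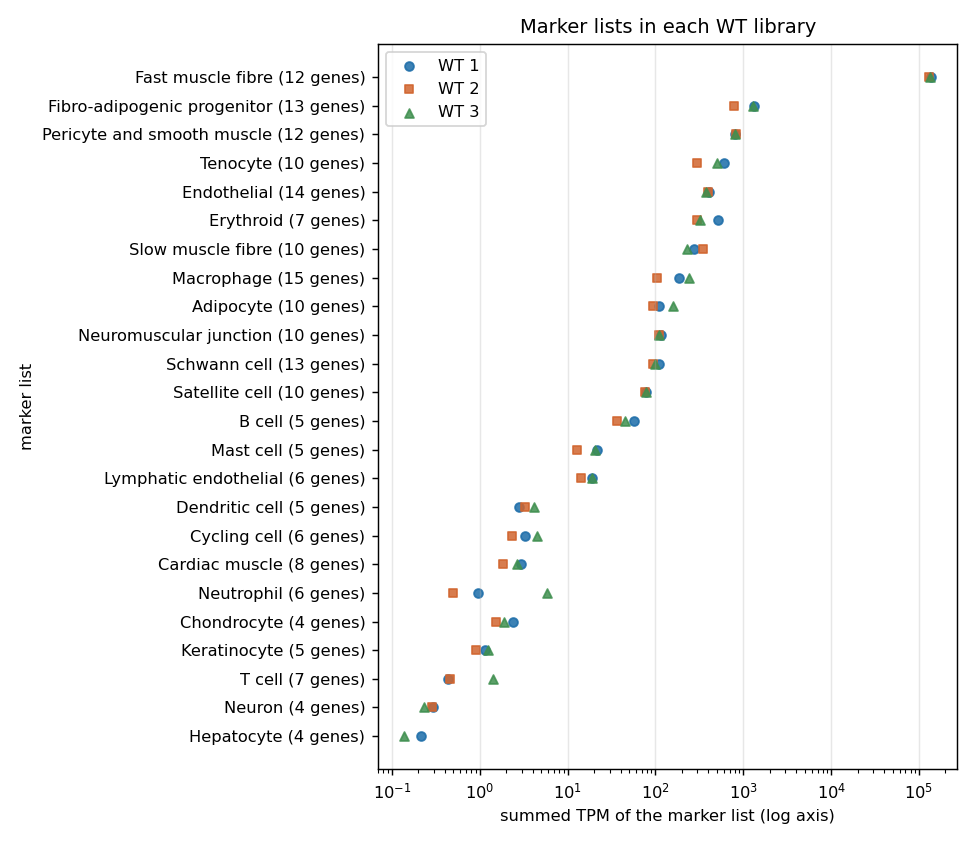
Summed TPM (log axis) of each marker list, 1 point per WT library, lists ordered by mean; the hepatocyte sum is 0 in WT 2 and has no point there. Fast fibre markers sum to 131463 to 137212 TPM, and fibro-adipogenic, tenocyte and macrophage sums are lowest in WT 2.

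The 3 libraries were close to each other over most genes. Of 5331 genes with a mean of at least 10 TPM, 134 (2.51%) had a highest-to-lowest TPM ratio of at least 2. The SD of the log2 difference between libraries was 0.30 for WT 1 and WT 2, 0.34 for WT 1 and WT 3 and 0.22 for WT 2 and WT 3. WT 1 was the library farthest from the median in 90 of the 134 genes, lower in 55 and higher in 35, and without WT 1 the count was 31. The median biological coefficient of variation, estimated per gene with shrinkage to a trend, was 0.128, and 0.101 without WT 1. Every gene has a highest and a lowest library, so counts over lists are read beside the same share of the 12443 genes with a mean of at least 1 TPM. WT 1 was lowest in 28.2% of these and highest in 45.2%, WT 2 lowest in 41.6% and highest in 17.9%, and WT 3 lowest in 30.3% and highest in 36.8%.

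Among the genes that differed most were a clock repressor, metabolic enzymes and interferon-inducible genes. Nr1d1, which represses clock genes, had 120, 26.6 and 16.4 TPM, and Pfkfb3, which makes an activator of glycolysis, had 124, 19.4 and 18.6 TPM. Both stood alone in WT 1, where they were high. Glul, glutamine synthetase, had 107, 481 and 530 TPM, Fkbp5, a chaperone of steroid receptors, 9.86, 54.7 and 61.9 TPM, and Chac1, which breaks down glutathione, 20.9, 106 and 79.5 TPM. These genes were low in WT 1 alone. Prima1, the membrane anchor of acetylcholinesterase, went the same way, with 3.12, 16.1 and 13.4 TPM. Cyp26b1, which degrades retinoic acid, had 3.85, 23.9 and 8.78 TPM and was highest in WT 2. WT 3 stood alone in Gm4841 (3.69, 1.67 and 37.3 TPM), Iigp1, an interferon-inducible GTPase (7.65, 11.5 and 55.6 TPM), and Mt2, a metallothionein (4.51, 7.27 and 27.6 TPM), which is under Gm45774 of the opposite strand in 73.5% of its exon bases. At the other end, Rps4x, a ribosomal protein, had 95.9, 96.3 and 96.3 TPM, Hibadh, of valine breakdown, 38.1, 38.1 and 38.3 TPM, and Coq7, of coenzyme Q synthesis, 12.8, 12.9 and 12.9 TPM. Tmem37 and 2810004N23Rik had ratios of 1.00.

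WT 2 combined low connective tissue, macrophage and mast cell markers with high oxidative genes. It was the lowest library in 13 of 13 fibro-adipogenic, 10 of 10 tenocyte, 12 of 12 macrophage and 5 of 5 mast cell markers with a mean of at least 1 TPM, against 41.6% of all genes. It was the highest library in 16 of 20 fatty acid oxidation genes, 13 of 20 citric acid cycle genes, 54 of 89 nuclear respiratory subunits and 7 of 10 slow fibre markers, against 17.9% of all genes. Etfa, an electron carrier of fat oxidation, had 236, 273 and 256.2 TPM, Acaa2, the last enzyme of the spiral, 216, 261 and 230.0 TPM, and Sdha, of the citric acid cycle, 628, 664 and 641 TPM. The differences were small beside those of the matrix genes, such as Col1a1 above. The slow fibre markers counted as highest in WT 2 included Myl3 and Myoz2 (42.4, 65.8 and 39.1 TPM). Outside these lists, Myh2, Ldhb and Mb (2970, 3812 and 3069 TPM), the oxygen store myoglobin, were also highest in WT 2. With TMM-scaled counts WT 2 was lowest in 28.4% of all genes and highest in 29.3%. Over the 5 other scalings tried, the lowest share ran from 25.9% to 40.6% and the highest share from 18.6% to 32.2%. Under these scalings the fibro-adipogenic count stayed at 12 or 13, tenocyte at 10, macrophage at 11 or 12 and mast cell at 4 or 5. The fatty acid oxidation count was 17 or 18. The part of the matrix, macrophage, mast cell and slow fibre signals in the other WT 2 values was not tested.

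WT 1 and WT 3 each differed in a further group of genes chosen after their values were seen, so these counts are descriptions. WT 1 was lowest in 18 of 18 genes known to respond to glucocorticoids, against 28.2% of all genes. Their median TPM was 26.8 in WT 1, 60.4 in WT 2 and 65.3 in WT 3. Besides Glul and Fkbp5, Tsc22d3, a steroid-induced anti-inflammatory factor, had 132, 206 and 250 TPM, and Klf9, a steroid-induced factor, 144, 202 and 205 TPM. The atrophy ligases Trim63 (133, 179 and 232 TPM) and Fbxo32 (111, 151 and 150 TPM) went the same way. WT 1 was also lowest in 15 of 20 fatty acid oxidation genes and highest in 5 of 5 erythroid genes, against 45.2% of all genes, and held the highest ribosomal RNA share given above. The part of these in the WT 1 values was not tested. WT 3 was highest in 16 of 16 interferon-gamma-inducible genes and in 11 of 12 macrophage markers, against 36.8% of all genes. Cd74, of antigen presentation, had 74.0, 38.2 and 132 TPM, and Irgm2, an interferon-inducible GTPase, 12.5, 14.7 and 41.4 TPM. Several of these genes are also made by macrophages, and the part of those cells was not tested. The 18 of 18 and 16 of 16 were the same under all 5 other scalings. That adds no support, as both lists were chosen after their values were seen. Over those scalings WT 1 was lowest in 29.0% to 38.6% of all genes and WT 3 highest in 32.4% to 40.35%. WT 3 was lowest in 30.3% of all genes and in 6 of 10 slow fibre markers.

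**Figure D5:**
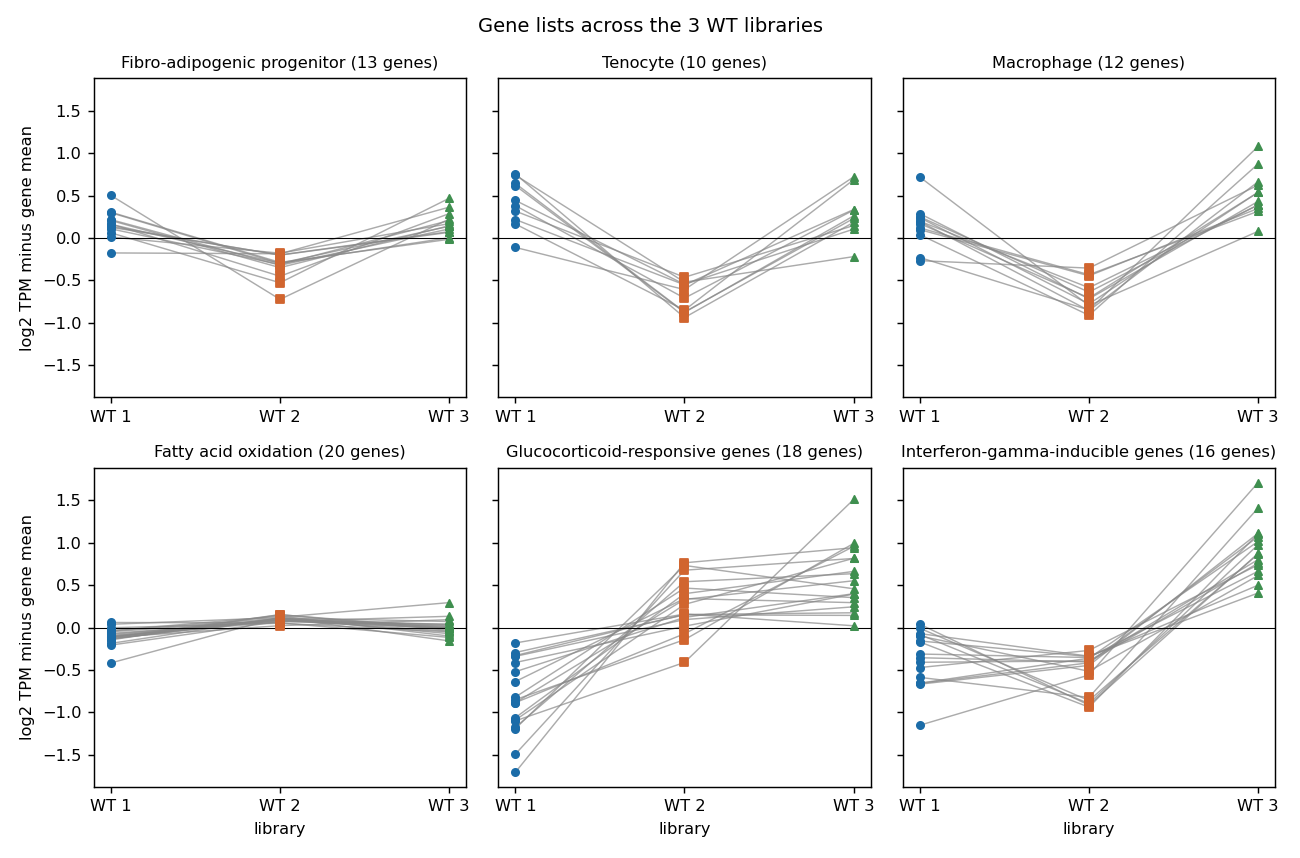
log2 TPM of each gene minus its mean over the 3 WT libraries, for members with a mean of at least 1 TPM; each line is a gene and the lower middle and lower right lists were chosen after values were seen. All 13 fibro-adipogenic, 10 tenocyte and 12 macrophage genes are lowest in WT 2, all 18 glucocorticoid-responsive genes are lowest in WT 1, and all 16 interferon-gamma-inducible genes are highest in WT 3.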

How the data were processed

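Strand-marked mRNA libraries of 3 WT tibialis anterior muscles were described from raw read counts per gene that the authors deposited with exon lengths. Per the submitters' processing notes, the tools were featureCounts 1.6.0, FastQC 0.11.4 and edgeR 3.30.1, with GRCm38 (mm10). The aligner, annotation release, strand setting and handling of reads with several matches were not given in the sources used here. Overlapping genes and close copies are therefore treated as uncertain. The RPKM values deposited by the authors cover 13958 genes and lie above 0 in 138 of 138 values whose count is 0, so they served only as an alternative.

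TPM, shares and ratios were computed in Python 3.11.15 with pandas 2.3.3. Of 54232 gene IDs, 54165 were found in GENCODE M21 on GRCm38, 52697 with the same exon length, and coordinates come from it. For the 98 symbols with more than 1 ID the more abundant ID was used. Overlap and shared words of 75 bases were computed from the same release. The biological coefficient of variation came from edgeR 4.0.16 in R 4.3.3 on 13036 genes, and size factors from DESeq2 1.42.0. Both scripts were tested on simulated data. No groups were compared and no p-value was computed. Short genes near 10 TPM rest on few reads, such as Mt2 on 21, 36 and 100. A pairwise chi-square of 8.08 to 20.5 per degree of freedom means that the libraries differ by more than counting noise, so none is a second sequencing of another, and it says nothing on whether the muscles were separate.

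The members and gene lists were chosen with earlier results of these data known. Named genes are the 25 most abundant, the leader and runner-up of each family, all sarcomeric myosin heavy chains, the 3 highest and the lowest of each list, the 10 protein-coding genes with the largest and 5 with the smallest ratio between libraries, 5 long non-coding genes and 5 fibre markers. Others, among them Actb, Ckb, Sln, Pax7, Dmd, Utrn, Pgm2, Gapdh, Mb, Prr33, Nctc1, mt-Co2, mt-Co3, mt-Atp6, mt-Nd3 and Irgm2, and the glucocorticoid and interferon lists, were chosen after their values were seen. Of 534 listed genes, 2 were not in the table. Some genes that the rule names are not reported here. Alternatives were other lengths, counts scaled to library size alone, no mitochondrial genome, other thresholds and scalings, the deposited RPKM and leaving out each library. Nuclear protein-coding genes alone were added after seeing the data.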

Additional observations from a re-analysis of the deposited data

How the results depend on the processing

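Of 83 alternative values for 11 results, 62 stayed within the spread between libraries or within 1.5 times a count, and 21 did not. The share of the 10 most abundant genes was 26.6% over nuclear protein-coding genes, 26.3% without the mitochondrial genome, 28.0% by counts scaled to library size, 42.6% with the longest transcript as length and 51.6% with 200 bases taken from each length. The number of genes that hold 50% was 66.3 by counts scaled to library size and 97.3 without the mitochondrial genome, whose share was 44.4% of TPM. A threshold of 5 TPM left 7262 genes in every library. Genes with a ratio of at least 2 numbered 205 without the mitochondrial genome, 224 at a minimum of 5 TPM and 775 at 10 counts in every library. Leaving out 1 library gave 31 (without WT 1), 98 and 83 (without WT 3). The endothelial median was 27.2 with the longest transcript, 43.3 by counts scaled to library size and 38.8 without the mitochondrial genome, and the fibro-adipogenic median 36.3 and 82.1 under the last 2. The slow share of troponin I was 0.0326% with the longest transcript and 0.0488% by counts scaled to library size. These alternatives change the length, the total or the genes counted, and no other cause was tested. Leaving out 1 library at a time gave 48.6% to 49.6% for the top 10 share, 68.6% to 71.9% for the Myh4 share, 11808 to 11939 detected genes and a median coefficient of variation of 0.101 to 0.153. No paired analysis was possible because no groups were compared.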

Other observations

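Some other clock genes are given beside Nr1d1. Arntl, the clock activator that Nr1d1 represses, had 6.33, 2.24 and 2.09 TPM in WT 1 to 3, and its partner Clock had 12.2, 7.73 and 8.52 TPM, both highest in WT 1. Per2, a clock repressor, went the other way, with 5.13, 16.1 and 16.6 TPM. Nr1d2, a relative of Nr1d1, also stood lower in WT 1, at 102, 132 and 137 TPM, and Tef, a clock output factor, at 85.6, 109 and 107 TPM. Dbp, another output factor, had 35.5, 34.5 and 31.9 TPM and was highest in WT 1. Arntl, Clock, Per2 and Dbp were chosen after their values were seen. Across the 20 genes of the clock and immediate early list with a mean of at least 1 TPM, WT 1 was highest in 10, against 45.2% of all genes, and lowest in 8, against 28.2%. The immediate early genes Fos (3.54, 2.32 and 3.03 TPM) and Egr1 (2.03, 1.80 and 2.02 TPM), also chosen after their values were seen, were low in every library.

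Markers of further resident cell types mostly had low levels. Fat cell markers summed to 110, 93.4 and 157 TPM, mostly from Fabp4 (90.1, 76.0 and 130 TPM), which vessels also make, and Adipoq, the defining hormone of fat cells, had 1.74, 2.84 and 3.52 TPM. Mast cell markers summed to 21.6, 12.9 and 20.6 TPM, led by the proteases Tpsb2 and Mcpt4. Lymphatic vessel markers summed to 18.9, 14.2 and 19.1 TPM, led by Pdpn at 6.32, 4.84 and 8.12 TPM. Dendritic cell markers summed to 2.80, 3.27 and 4.16 TPM. A mean of at least 1 TPM was reached by 4 of 10 fat cell and 1 of 5 dendritic cell markers. Mstn, the secreted brake on muscle growth myostatin, chosen after its values were seen, had 42.7, 50.6 and 62.7 TPM.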
